A study of Mus musculus with 8 samples.

Results

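The serpins, the family of genes for serine protease inhibitors and their relatives, were examined in the liver of mice with and without the S74N allele of *Rragc*. Members were taken by name: every gene of the table whose symbol starts with Serpin, leaving out names marked as pseudogenes, which removed 1 name. This gave 30 members among 14506 genes. Of these, 17 belonged to clade A, 5 to clade B and 8 to other clades. RNA was profiled in whole liver of 8 mice, 4 of each genotype. The labels number no replicates, so the replicate numbers used here follow the order of the samples within each genotype. RagC, the product of *Rragc*, is a GTPase that relays nutrient levels to the kinase complex mTORC1, and S74N replaces 1 amino acid. The mutant mice carried it on 1 *Rragc* allele in every cell, through a knock-in made by genome editing, and the control mice were wild type at both alleles. The study keeps its mice on a C57BL/6 background and on standard chow. The *Rragc*+/+ mice were 3 months old in replicates 1 to 3 and 2.5 months old in replicate 4. The *Rragc* S74N/+ mice were 3 months old in replicates 1 and 2, 2.5 months old in replicate 3 and 2 months old in replicate 4. Age therefore differed between the groups as well as within them, and below the 2 groups are called mutant (*Rragc* S74N/+) and control (*Rragc*+/+), with values listed in the order of the replicates.

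Serpins are suicide inhibitors. A protease attacks an exposed stretch of the serpin, the reactive centre loop, and the cleavage snaps the loop into the body of the inhibitor and leaves the protease trapped and distorted. The letters of this loop decide which protease is caught. Hepatocytes secrete most plasma serpins, which restrain clotting, fibrinolysis, complement and leukocyte elastase, while some relatives have lost inhibition and carry hormones. Clade B serpins lack a classical secretion signal and act mainly inside cells.

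Libraries were made from the 3′ ends of messenger RNA, so a transcript gave reads by copy number and not by length, and levels are set side by side between genes without a length correction. Values are normalized read counts, in which the counts of each liver were divided by its size factor. Reads in listed genes ranged from 4313076 to 6632108 per liver. Gene-level counts of *Rragc* cannot check the genotype, since the edit substitutes an amino acid: its level was 84.1 ± 20.4 in control livers and 76.6 ± 7.32 in mutant livers (SD, n = 4 each). Liver was checked with 6 hepatocyte genes, whose summed level ran from 219508 to 320564 in control livers and from 238248 to 433234 in mutant livers. Mutant replicate 4, the youngest mouse, stood apart. A list of 17 genes that male hepatocytes express more than female ones summed to 18957 in this liver. The range was 47575 to 83527 in the other mutants and 100019 to 123895 in control livers. Of the opposite list of 14 genes, 5 were detected. These summed to 946 in mutant replicate 4, of which *Cyp17a1* alone made up 799, and to between 24.05 and 51.3 in the other 7. The labels give no sex, and the Y-linked gene *Ddx3y* was at 315 to 533 in all 8 livers. Replicates are single mice, and in whole tissue fewer cells of a type and less RNA per cell cannot be told apart.

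Reads of clade A serpins are uncertain between paralogs, and the sequences show where the copies differ. *Serpina1a* to *Serpina1e* are mouse copies of the gene for alpha-1-antitrypsin, the inhibitor of neutrophil elastase, and lie side by side on chromosome 12. Which protease each mouse copy inhibits was not measured. Below is the coding stretch of each that holds the reactive centre loop, 87 bases in the last exon, read from GENCODE M21 transcripts on GRCm38, with the 18 positions at which the 5 copies are not all alike in capitals.
Serpina1a: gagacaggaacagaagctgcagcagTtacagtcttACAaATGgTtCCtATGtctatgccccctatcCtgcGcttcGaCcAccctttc
Serpina1b: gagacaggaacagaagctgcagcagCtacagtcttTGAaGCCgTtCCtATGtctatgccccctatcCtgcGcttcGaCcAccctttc
Serpina1c: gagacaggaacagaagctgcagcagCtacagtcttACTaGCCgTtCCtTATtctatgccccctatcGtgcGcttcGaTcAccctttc
Serpina1d: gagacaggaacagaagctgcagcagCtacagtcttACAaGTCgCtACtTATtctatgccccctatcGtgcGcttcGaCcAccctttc
Serpina1e: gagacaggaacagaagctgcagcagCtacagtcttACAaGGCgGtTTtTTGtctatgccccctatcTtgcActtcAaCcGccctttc
They lie at chr12:103853750-103853836, chr12:103728317-103728403, chr12:103895087-103895173, chr12:103763755-103763841 and chr12:103947093-103947179 in that order, all on the minus strand. Pairs of copies differed at 5 to 12 of the 87 bases, and *Serpina1c* and *Serpina1d* were the closest pair. Before the last 21 bases lie 13 of the variable positions, the first at position 26 counted from the left. The other 5 lie in the last 21 bases, and at 4 of these *Serpina1e* differs from all other copies.

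The Serpina3 paralogs, relatives of human alpha-1-antichymotrypsin, differ far more in the same place. Their loop stretches are shown because the clearest difference between the genotypes fell on one of them, *Serpina3k*. They are given for 5 of the 6 paralogs, and *Serpina3f* is not shown. Capitals mark the loop between the 33 hinge bases and the last 12 bases, both in lower case.
Serpina3c: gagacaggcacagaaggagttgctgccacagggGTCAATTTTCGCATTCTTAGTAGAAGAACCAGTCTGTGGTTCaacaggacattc
Serpina3g: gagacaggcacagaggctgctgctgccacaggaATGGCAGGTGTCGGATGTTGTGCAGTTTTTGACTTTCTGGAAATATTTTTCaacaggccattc
Serpina3k: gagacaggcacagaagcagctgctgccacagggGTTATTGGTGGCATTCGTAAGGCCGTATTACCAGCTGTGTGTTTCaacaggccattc
Serpina3m: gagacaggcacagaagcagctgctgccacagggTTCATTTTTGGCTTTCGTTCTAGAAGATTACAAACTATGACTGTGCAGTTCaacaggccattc
Serpina3n: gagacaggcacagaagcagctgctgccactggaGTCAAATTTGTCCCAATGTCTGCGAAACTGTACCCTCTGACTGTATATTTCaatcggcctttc
Each lies in the last exon. The *Serpina3k* stretch is at chr12:104345263-104345352 on the plus strand and the *Serpina3c* stretch at chr12:104147307-104147393 on the minus strand. Since 3′ libraries read the ends of transcripts, the last 400 bases of 1 transcript per gene were cut into windows of 50 bases and searched in all other genes. A window was found without mismatch in another gene for 54.7% of windows in *Serpina1a*, 37.9% in *Serpina1b*, 39.6% in *Serpina1c*, 53.3% in *Serpina1d* and 18.8% in *Serpina1e*. The share was 0% in *Serpina3c*, *Serpina3k*, *Serpina3m* and *Serpina3n*, 1.99% in *Serpina3f* and 3.13% in *Serpina3g*. With up to 3 mismatches, the number the authors' alignment allowed, another Serpina gene matched 66.7% to 88.3% of windows of the 5 *Serpina1* copies. In the 6 Serpina3 paralogs this was 0.285% to 21.1%, with *Serpina3k* at 7.98%. Levels of single *Serpina1* copies are therefore less certain than their sum, and *Serpina3k* is largely distinct at its 3′ end. The *Serpina1* sum is not complete either, since it leaves out any read that was assigned to none of the copies. *Gm8893*, which is outside the sum, also held exact matches to windows of each of the 5 copies. How many reads were lost in this way was not tested. In the annotation *Serpina1b* spans *Serpina1d* and *Serpina3m* spans *Serpina3k* on the same strand, so that reads of these pairs can also be hard to assign.

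The 5 *Serpina1* copies also shared their start regions. The 12 letters GTTAATATTCAC, in capitals below, were read from these copies themselves and open with GTTAAT, a half-site of hepatocyte nuclear factor 1, a liver transcription factor. Searched on both strands, they were in 5 of 32851 RefSeq promoters, or 0.0152%, and in 5 of the 23 serpin members with a promoter in the table, which were the 5 *Serpina1* copies. The windows below are 60 bases each on GRCm38.p6, minus strand, and are shown because they are nearly identical among copies whose levels differed.
Serpina1a: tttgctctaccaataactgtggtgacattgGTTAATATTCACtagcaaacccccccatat
Serpina1b: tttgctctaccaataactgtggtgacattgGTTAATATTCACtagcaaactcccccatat
Serpina1c: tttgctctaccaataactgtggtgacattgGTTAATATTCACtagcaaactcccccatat
Serpina1d: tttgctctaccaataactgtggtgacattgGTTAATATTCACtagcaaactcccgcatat
Serpina1e: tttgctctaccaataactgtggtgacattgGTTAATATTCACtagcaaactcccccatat
They lie at chr12:103863611-103863670, chr12:103738186-103738245, chr12:103904948-103905007, chr12:103773620-103773679 and chr12:103956946-103957005. A match of letters is a description and no measurement of binding.

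Serpins were among the most abundant transcripts of these livers. They took 4.44% to 6.54% of the reads in listed genes, 5.68% ± 0.799 in control livers and 4.88% ± 0.471 in mutant livers (SD, n = 4 each), and the groups overlapped. Among the 50 genes with the highest means were 6 members, which were the 5 *Serpina1* copies and *Serpina3k*. *Serpina1e* ranked 8 among all genes with a mean of 102220, and *Serpina3k* ranked 13 with 51713. The next members were *Serpinc1*, antithrombin, at rank 100 with a mean of 5392 and *Serping1*, the C1 inhibitor of complement and contact activation, at rank 113 with 4772. A mean of at least 10 was reached by 25 members, all 17 of clade A, *Serpinb6a* and *Serpinb9* of clade B, and 6 others. The 5 below it were *Serpinb1a*, *Serpinb6b*, *Serpinb8*, *Serpinh1* and *Serpini1*, with 0 to 27 reads in any liver, and they were not tested.

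**Figure D1:**
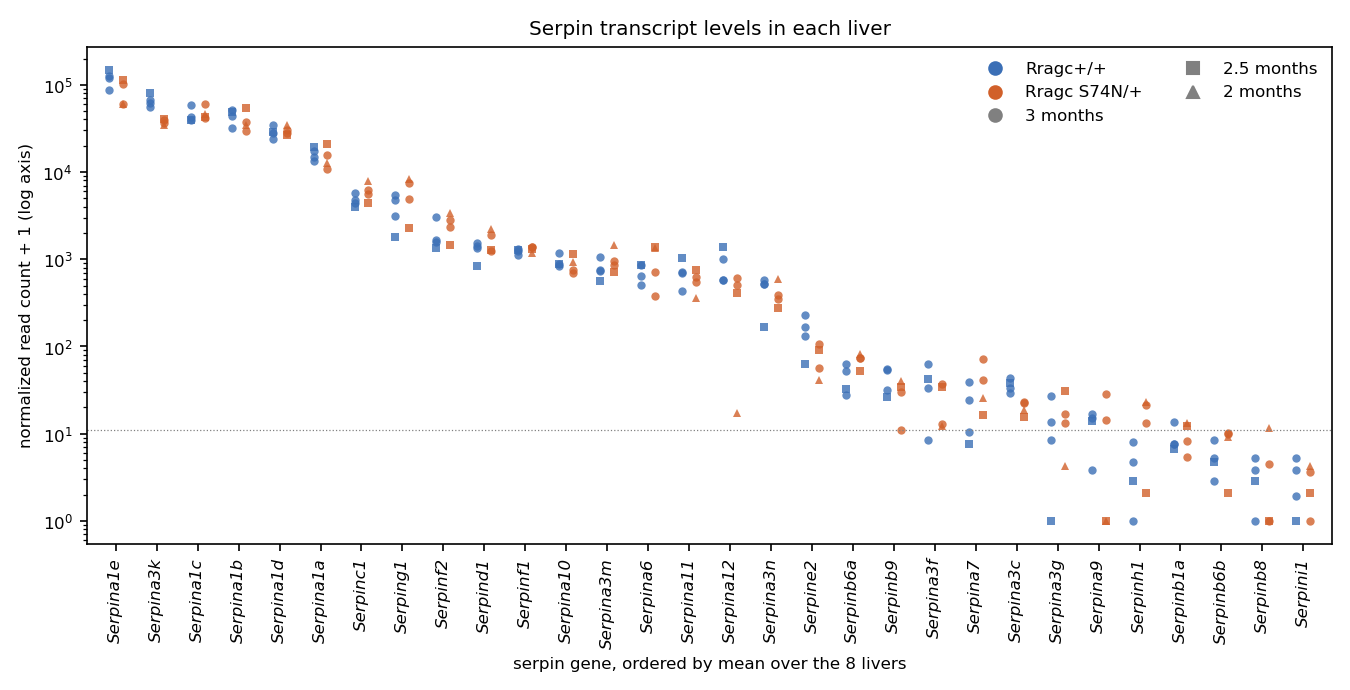
Normalized read count plus 1 (log axis) of the 30 serpins in each of the 8 livers, ordered by mean, with colour for genotype and marker shape for age; the dotted line is the mean of 10 needed for testing. The 5 *Serpina1* copies and *Serpina3k* stand above all other serpins, and 5 members have means under the line.

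Whether the S74N allele went with a different level of serpin RNA was tested with a linear model across all genes. *Serpina3k*, the second most abundant serpin, was lower in all 4 mutant livers, and so was the much rarer *Serpina3c*. The *Serpina1* sum, antithrombin and the C1 inhibitor overlapped between the genotypes. By limma with Benjamini-Hochberg adjustment over 11174 genes, 0 of 25 tested members passed an adjusted p of 0.05 (0.00895% of all tested genes did), and adjusted p ranged from 0.846 to 0.980. At an unadjusted p under 0.05 the same test called 5 members, 20% of those tested against 5.17% of all genes, of which 4 were lower (2.8% of all genes) and 1 higher (2.37%). With edgeR and with DESeq2 on the recovered reads, 3 members were below an unadjusted 0.05, as were 618 and 675 of the 11174 genes. Among members *Serpina3k* alone passed the adjusted threshold, only with DESeq2, which took 10 genes past it against 1 with limma. The groups did not overlap for 2 members, 8.0% of those tested against 2.94% of all genes; both were lower in mutants, as were 1.64% of all genes. The fitted difference was below 0 for 13 members (48.7% of all genes) and above 0 for 12, and its median was -0.056 on the log2 scale, against 0.012 for all tested genes. Fold changes here are differences of log2(normalized count + 1), S74N/+ minus +/+, which understate changes of low genes.

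**Figure D2:**
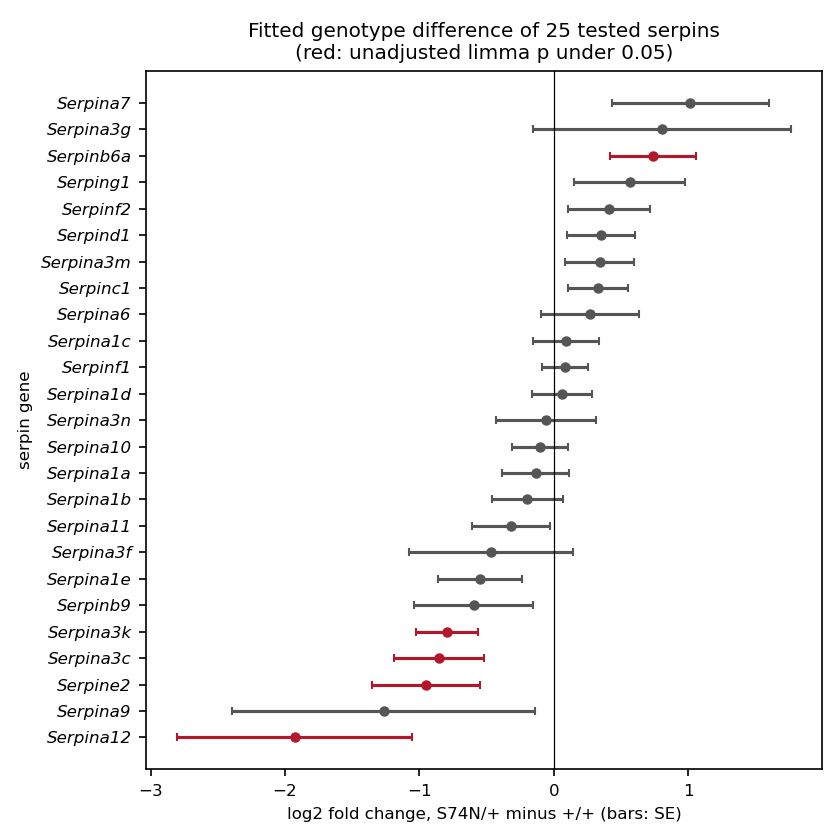
Fitted log2 fold change (S74N/+ minus +/+) with its SE for the 25 tested serpins, red where the unadjusted limma p was under 0.05. The red points are *Serpina3k*, *Serpina3c*, *Serpine2* and *Serpina12* below 0 and *Serpinb6a* above 0; none passed the adjusted threshold.

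*Serpina3k* encodes contrapsin, a plasma inhibitor of trypsin-like proteases made by hepatocytes, at chr12:104338486-104346144. Its normalized count was 61632, 54968, 66228 and 80147 in control livers and 39165, 36391, 40178 and 34993 in mutant livers. Every mutant liver was below every control liver, the mutant livers lay close together, and the highest value came from the 2.5-month-old control. The means were 65744 ± 10657 and 37682 ± 2403 (SD, n = 4 each), a ratio of 0.573. The log2 fold change was -0.79 (SE 0.23) with a limma p of 0.00448 and an adjusted p of 0.846, while DESeq2 gave -0.80 and an adjusted p of 0.0374. An exact two-sided permutation test gave p = 0.0286, the smallest possible with 4 against 4. The difference was -0.69 among 3-month-old mice, 2 against 3, and -0.996 between the single 2.5-month-old mice. In all 20 alternatives the unadjusted p stayed under 0.05, with log2 fold changes from -0.87 to -0.69.

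Like *Serpina3k*, the male-biased hepatocyte list was lower in every mutant liver. At an unadjusted limma p under 0.05, 9 of its 17 genes were lower, against 2.8% of all tested genes, and none was higher. Its median log2 fold change was -1.26, with 0 past the adjusted threshold. In mutant livers *Serpina3k* ran from 34993 to 40178 and the list sum from 18957 to 83527, both lowest in mutant replicate 4. Without this liver the log2 fold change of *Serpina3k* was -0.76. The list sum of each other mutant was still below that of every control liver. The part of that list in the *Serpina3k* difference was not tested. Acute-phase genes, which liver induces in inflammation, were also counted. At the same threshold 1 of 21, *Saa3*, was higher, against 2.37% of all tested genes, and 0 lower, with a median of 0.38.

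*Serpina3c* had counts of 28.0, 42.1, 32.5 and 37.4 in control livers and of 22.0, 21.3, 14.5 and 17.9 in mutant livers. The groups did not overlap, but these values rest on 13 to 45 reads per liver. The log2 fold change was -0.85 (SE 0.33, limma p = 0.0243, exact permutation p = 0.0286, limma adjusted p = 0.846). The unadjusted p was under 0.05 in 14 of the 19 alternatives that gave a value. Across the livers its level was 0.0361% to 0.0766% of that of *Serpina3k*, 0.0544% ± 0.0148 in control livers and 0.0506% ± 0.0101 in mutant livers. The ratio thus overlapped between the genotypes, and whether a share of its reads came from *Serpina3k* was not tested.

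The other Serpina3 paralogs were not called. *Serpina3m*, whose annotated span includes *Serpina3k*, had 749, 1054, 739.8 and 563 in control livers and 949, 864, 708 and 1466 in mutant livers. The groups overlapped, with the highest value in the 2-month-old mutant (log2 fold change 0.34, SE 0.26, exact permutation p = 0.314). Its ratio to *Serpina3k* was 1.24% ± 0.504 in control livers and 2.69% ± 1.05 in mutant livers. *Serpina3n*, an acute-phase inhibitor of granzyme B and leukocyte proteases, had 517, 577, 522 and 166 in control livers and 390.2, 348, 276 and 592 in mutant livers. The lowest values of both groups came from the 2.5-month-old mice, and the fitted difference was -0.056 (SE 0.37, exact permutation p = 0.971). Among 3-month-old mice alone it was -0.55, with an unadjusted limma p under 0.05. *Serpina3f* and *Serpina3g* were scarce. *Serpina3f* ranged from 7.48 to 62.5 in control livers and from 11.4 to 36.4 in mutant livers (-0.47, SE 0.61, exact permutation p = 0.571). *Serpina3g* ranged from 0 to 26.1 and from 3.26 to 30.1 (0.81, SE 0.96, exact permutation p = 0.571), and the 0, in control replicate 4, allows up to 3 reads or a level of 2.80.

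The sum of the 6 Serpina3 paralogs does not depend on how counted reads were split among them. It leaves out any read that was assigned to none of them. The values of the sum were 63014, 56656, 67568 and 80955 in control livers and 40554, 37672, 41240 and 37084 in mutant livers. The groups did not overlap, as for *Serpina3k*, which made up 94.4% to 99.0% of the sum in every liver. The log2 fold change was -0.77 (SE 0.23) with a limma p of 0.00540 and an adjusted p of 0.846, and DESeq2 gave an adjusted p of 0.0425. The exact permutation p was again 0.0286.

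**Figure D3:**
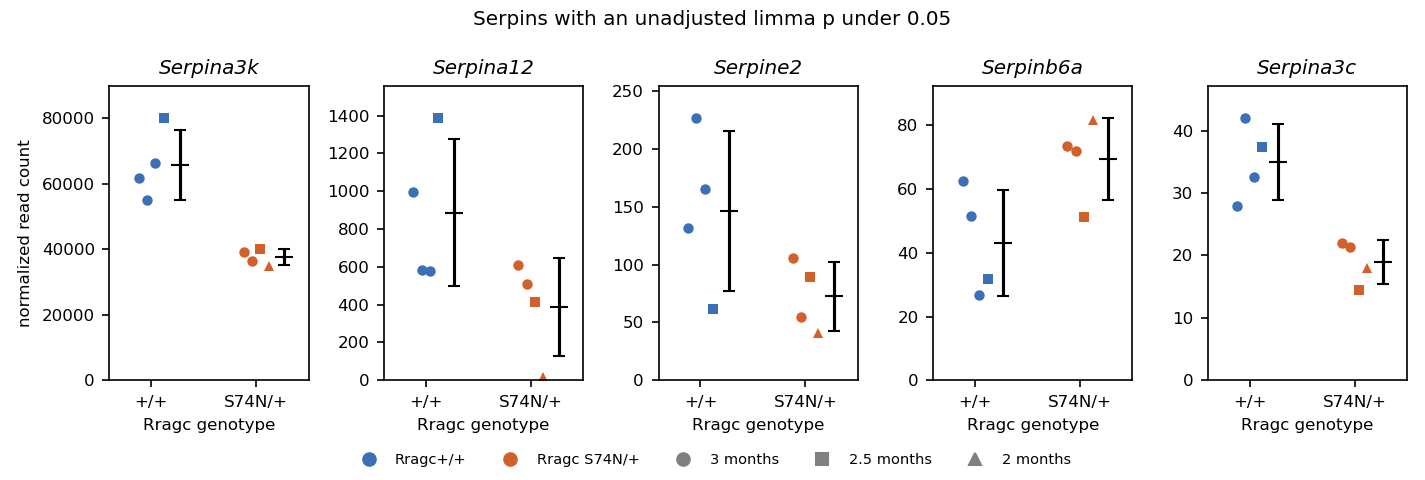
Normalized read counts of the 5 serpins with an unadjusted limma p under 0.05, 1 point per liver, marker shape for age, with mean and SD (black, n = 4) beside each group and axes from 0. The groups are separate for *Serpina3k* and *Serpina3c* and overlap for the other 3, and *Serpina12* has 1 mutant liver near 0 (16.3).

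The *Serpina1* copies together were not called. Their sum was 253222, 194747, 283096 and 286791 in control livers and 191128, 225800, 257291 and 189417 in mutant livers. The groups overlapped: mutant replicates 1 and 4 were lowest, control replicate 2 came next, and control replicates 3 and 4 were highest. The log2 fold change was -0.23 (SE 0.29, exact permutation p = 0.200), and the means were 254464 ± 42554 and 215909 ± 32281.

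Within that sum *Serpina1e*, at chr12:103946931-103958975, had the highest and most variable counts of the copies. It also shared the fewest exact 3′ windows with other genes, 18.8%. *Serpina1a*, with the lowest counts, shared the most, 54.7%. The part of read sharing in the order of the copies was not tested. The count of *Serpina1e* was 120890, 86240, 124513 and 149397 in control livers and 59840, 102554, 113631 and 60692 in mutant livers. Mutant replicates 1 and 4 were low and replicates 2 and 3 lay within the control range, so the groups overlapped (log2 fold change -0.55, SE 0.31, exact permutation p = 0.143). Its share of the sum was 31.3% and 32.0% in those 2 livers and 44.0% to 52.1% in the other 6. The share of *Serpina1c* was 31.5% and 24.5% in the same 2 livers, against 13.7% to 20.5% elsewhere. Its level was 60224 in mutant replicate 1, the highest of the 8 livers, but 46314 in mutant replicate 4, near its mean of 46296. The ratio of *Serpina1e* to *Serpina1c* was 0.994 and 1.31 in mutant replicates 1 and 4, and 2.15 to 3.79 in the other 6 livers. Shares of a sum are bound to offset one another, and reads of the copies are partly interchangeable.

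The remaining copies were not called either. *Serpina1c* had means of 44889 ± 8875 in control livers and 47703 ± 8577 in mutant livers (log2 fold change 0.091, SE 0.25, exact permutation p = 0.514). *Serpina1b* was at 44132 ± 8928 and 38824 ± 10390 (-0.20, SE 0.27, exact permutation p = 0.457). *Serpina1d* was at 28951 ± 4161 and 30126 ± 3608 (0.061, SE 0.22, exact permutation p = 0.686). *Serpina1a*, the copy with the lowest counts, was at 16231 ± 2785 and 15077 ± 4433 (-0.14, SE 0.25, exact permutation p = 0.6). All 4 overlapped between the genotypes.

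**Figure D4:**
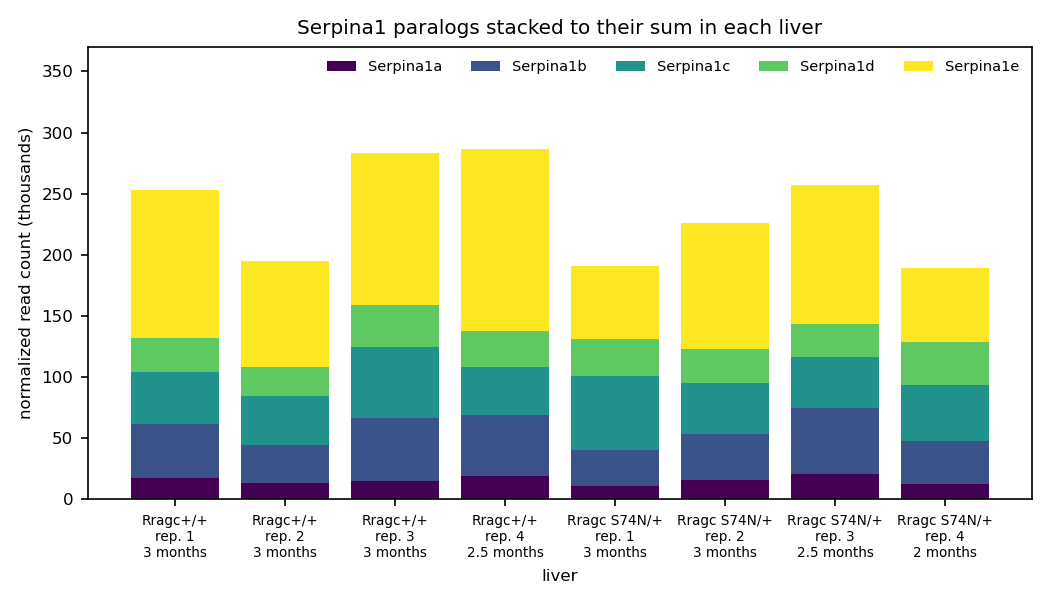
Normalized read counts (in kilo-counts, axis from 0) of the 5 *Serpina1* copies stacked in each liver, with genotype, replicate and age below the bar. *Serpina1e* is the top segment, and it is short in mutant replicates 1 and 4, where it holds 31.3% and 32.0% of the sum.

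Of the other clade A members, *Serpina12* encodes vaspin, a serpin linked to insulin sensitivity, at chr12:104028769-104044443. It had 997, 584, 577 and 1390.2 in control livers and 611, 507, 415 and 16.3 in mutant livers. Mutant replicate 4 was almost without it, at 20 reads, and 1 mutant value lay above 2 control values. The log2 fold change was -1.93 (SE 0.87, limma p = 0.0463, exact permutation p = 0.0857, limma adjusted p = 0.846). It was -0.71 without that liver and -0.32 among 3-month-old mice, and 10 of 20 alternatives kept an unadjusted p under 0.05. The male-biased list was lowest in the same liver, and its part in this value was not tested.

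*Serpina10*, the protein Z-dependent inhibitor of clotting factor Xa, had 1163, 828, 883 and 881 in control livers and 758, 702, 1149 and 924 in mutant livers, which overlapped (-0.10, SE 0.21, exact permutation p = 0.6). The hormone carriers varied more. *Serpina6*, corticosteroid-binding globulin, ranged from 506 to 858 in control livers and from 380.1 to 1377 in mutant livers, and mutant replicates 3 and 4, the 2 younger ones, were the 2 highest of all. *Serpina7*, thyroxine-binding globulin and the one clade A member outside chromosome 12, on the X chromosome, ranged from 6.54 to 38.2 and from 15.6 to 70.2. *Serpina11* ranged from 434 to 1045 and from 354 to 757. *Serpina9*, best known from germinal centre B cells, ranged from 2.83 to 15.9 and from 0 to 27.5, and was at 0 in mutant replicates 3 and 4, where 0 reads allow up to 3.34 and 2.45. None of these had an unadjusted limma p under 0.05 in the fit of all livers. *Serpina7* reached it in 5 of 19 alternatives, always higher in mutants, among them age as a covariate (1.43) and 3-month-old mice alone (1.34), and *Serpina6* in 1 of 20 (0.65 without mutant replicate 1).

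Of the serpins that check clotting, fibrinolysis and complement, the 4 that follow were not called. The means of these 4 were all higher in mutants, by an amount that depended on single livers. Fitted differences of *Serpina10* and *Serpine2*, which also act on clotting or fibrinolysis proteases, were below 0. They were -0.10 and -0.95, the second with an unadjusted limma p of 0.0337. *Serpinc1*, antithrombin, which inactivates thrombin and factor Xa with heparin as cofactor, had 4469, 4741, 5797 and 3979.96 in control livers and 6269.8, 5591, 4363 and 7928 in mutant livers. The groups overlapped, with the 2-month-old mutant highest (0.33, SE 0.22, exact permutation p = 0.229). *Serping1*, the C1 inhibitor, had 3149, 5442, 4779.9 and 1789 in control livers and 7504, 4918, 2305 and 8291 in mutant livers. It spanned 4.63-fold over the 8 livers, and the lowest livers were the 2.5-month-old mouse of each genotype (0.57, SE 0.41, exact permutation p = 0.286). *Serpinf2*, alpha-2-antiplasmin, the main inhibitor of plasmin, had 1649, 3052, 1574 and 1336 in control livers and 2851, 2345, 1448 and 3430.4 in mutant livers, overlapping (0.41, SE 0.30, exact permutation p = 0.343). *Serpind1*, heparin cofactor II, a second thrombin inhibitor, had 1345, 1543, 1432 and 846 in control livers and 1883, 1255, 1266 and 2229.5 in mutant livers, overlapping (0.35, SE 0.25, exact permutation p = 0.286). Leaving out 1 liver moved *Serping1* between 0.25 (without control replicate 4) and 0.95 (without mutant replicate 3), and *Serpinc1* between 0.19 (without mutant replicate 4) and 0.47 (without mutant replicate 3). It moved *Serpinf2* between 0.24 (without mutant replicate 4) and 0.66 (without control replicate 2), and *Serpind1* between 0.16 (without control replicate 4) and 0.47 (without mutant replicate 2). Without mutant replicate 3, *Serping1*, *Serpinf2* and *Serpinc1* had an unadjusted limma p under 0.05, as did *Serpinf2* without control replicate 2. Over all tested genes, 1682 of 11182 were under it without mutant replicate 3 and 606 of 11194 without control replicate 2. With all livers 578 of 11174 were.

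*Serpinf1*, pigment epithelium-derived factor, a serpin without inhibitory activity that restrains vessel growth, was the steadiest tested member. Its counts were 1244, 1297, 1123 and 1261 in control livers and 1368, 1374, 1293 and 1192 in mutant livers, a span of 1.22-fold. The means of 1231 ± 75.4 and 1307 ± 85.0 gave a log2 fold change of 0.085 (SE 0.17, exact permutation p = 0.257).

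*Serpine2*, protease nexin-1, is a cell-bound inhibitor of thrombin and plasminogen activators, at chr1:79794197-79861180. It had 131, 227, 166 and 61.7 in control livers and 106, 55.1, 89.2 and 40.8 in mutant livers. The 2.5-month-old control lay among the mutants and the groups overlapped (log2 fold change -0.95, SE 0.40, limma p = 0.0337, exact permutation p = 0.114, limma adjusted p = 0.846). Among 3-month-old mice it was -1.15, and between the 2.5-month-old mice 0.52, and the unadjusted p was under 0.05 in 13 of 20 alternatives. *Serpinb6a*, an intracellular inhibitor, had 62.5, 51.4, 26.9 and 31.8 in control livers and 73.4, 72.0, 51.3 and 81.6 in mutant livers. It was the one member with a higher level at an unadjusted p under 0.05 (0.74, SE 0.32, limma p = 0.0389, exact permutation p = 0.0857, limma adjusted p = 0.846), with 1 mutant value below 2 control values, and 9 of 20 alternatives kept that call. *Serpinb9*, an intracellular inhibitor of granzyme B, ranged from 25.2 to 53.8 in control livers and from 10.1 to 39.2 in mutant livers, with no call in the fit of all livers. Among 3-month-old mice alone its log2 fold change was -1.30, with an unadjusted limma p under 0.05. Among the members below the mean of 10, *Serpinh1*, the collagen chaperone Hsp47, was at 0 to 7.07 in control livers and 1.11 to 22.0 in mutant livers. *Serpinb1a*, *Serpinb6b*, *Serpinb8* and *Serpini1*, neuroserpin, stayed at or below 12.7 in every liver.

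Single livers set the extremes of many members. Control replicate 4, 2.5 months old, had the lowest value of the 8 livers for 9 of 25 tested members and the highest for 4. Mutant replicate 4, 2 months old, had the highest for 8 and the lowest for 5, counting *Serpina9*, which was at 0 in mutant replicate 3 as well. For *Serping1*, *Serpinf2*, *Serpinc1*, *Serpina3m* and *Serpina3n* the 2 lowest livers were those of the 2.5-month-old mice, 1 of each genotype, and the highest was that of the 2-month-old mouse. With 2 mice of one of these ages and 1 of the other, age and single animals cannot be told apart. The SD of log2 levels over the livers was under 0.5 for 12 of 25 tested members. None of these counts was set against all tested genes, so they do not mark serpins off from other genes.

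**Figure D5:**
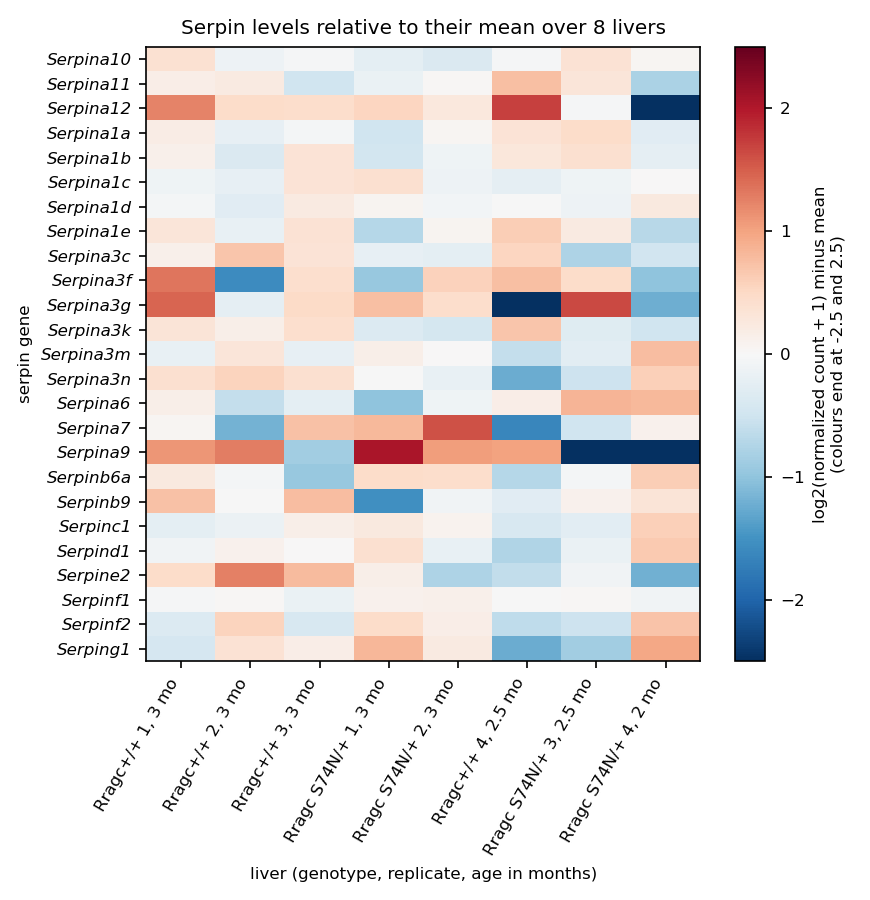
log2(normalized count + 1) minus the mean over the 8 livers for the 25 tested serpins (rows) in each liver (columns, ordered by age), red above and blue below the mean. *Serpina3k* is above its mean in the 4 control livers and below it in the 4 mutant livers, and control replicate 4 and mutant replicate 4 hold many of the extremes.

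The partners of serpins were counted as lists. Of 32 proteases that serpins inhibit, 20 were tested, 10 of them with a fitted difference below 0, and 1 had an unadjusted limma p under 0.05. This was *F11*, clotting factor XI, with 95.1, 106, 195 and 193 in control livers and 64.3, 80.0, 83.6 and 75.9 in mutant livers, groups that did not overlap (-0.88, SE 0.28, limma adjusted p = 0.846). Prothrombin (*F2*, 0.44) and plasminogen (*Plg*, 0.086), targets of antithrombin and of alpha-2-antiplasmin, overlapped between the groups, and the median of the list was -0.018. Of 13 cofactors, carriers and receptors, among them *Lrp1*, a receptor that clears serpin-protease complexes, 11 were tested, 0 had an unadjusted p under 0.05, and the median was 0.21. Of 16 genes that fold, export or degrade serpins in the secretory pathway, 15 were tested, 0 had an unadjusted p under 0.05, and the median was -0.057. For all tested genes that median was 0.012, and 5.17% had an unadjusted limma p under 0.05.

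Markers of other cells were counted in the same way. Counts are out of the genes tested. The kidney list itself holds 6 genes, the B and plasma cell list 5 and the acinar list 5, with 1 acinar gene detected. At an unadjusted limma p under 0.05, 2 of 7 Kupffer cell genes, 2 of 6 endothelial genes, 1 of 6 stellate genes and 1 of 2 B and plasma cell genes were higher. Of all tested genes 2.37% were. Lower were 2 of 2 kidney tubule genes, *Kap* and *Gpx3*, and 1 of 1 acinar gene, against 2.8% of all tested genes. The rest of the kidney list was absent or under a mean of 10, and whether kidney tissue differed between the samples was not tested. None was called among 6 hepatocyte, 2 cholangiocyte, 2 neutrophil, 1 T and NK cell, 1 adipocyte and 2 female-biased genes tested. The one gene past the adjusted threshold was *Gpx3* of the kidney list. *Serpina3k* and *Serpina1* are hepatocyte products, and the part of these lists in their values was not tested.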

How the data were processed

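Total RNA of 8 livers was made into 3′ libraries with the QuantSeq kit. Per the submitters' processing notes and the study's methods, the authors checked reads with FastQC 0.11.7, aligned them to GRCm38 with TopHat2 2.0.10, Bowtie 1.0.0 and SAMtools 0.1.19, allowing 3 mismatches and reads with several hits, counted them per gene by strand with HTSeq 0.6.1 and divided the counts by DESeq size factors. The deposited signal is thus a normalized read count for 14506 genes. All values (100%) were whole multiples of each liver's step (relative tolerance 1e-06), so whole reads were recovered, 4313076 to 6632108 per liver.

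log2(normalized count + 1) was fitted with limma 3.58.1 in R 4.3.3 (mean-variance trend, genotype as the only term) for the 11174 genes whose mean reached 10, with Benjamini-Hochberg adjustment at 0.05. Sums of the *Serpina1* and Serpina3 paralogs were fitted in place of their members. Permutation tests were exact and two-sided. Fold changes are printed for members with an unadjusted p under 0.05, with separate groups, among the 12 highest means, or in the 2 paralog groups, 20 in all. Fold changes of *Serpina6*, *Serpina7* and *Serpinb9* under other settings were chosen after their values were seen. Other settings were pseudocounts of 0.1 and 5, filters at 50 or none, TMM and upper-quartile rescaling, no trend, age in months as a covariate, array weights, only mice aged 3 months, edgeR 4.0.16 and DESeq2 1.42.0 on recovered reads, and leaving out each liver. Coordinates and transcripts are those of GENCODE M21, close to the release that the authors counted against, in which all 30 members were found. Reads carry no stated molecular identifiers, so the limit of 3 reads for a count of 0 covers counting error only. The fit was tested on simulated counts. Members and lists were chosen with earlier results of these data known.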

Additional observations from a re-analysis of the deposited data

Results flagged for a closer look

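Dixon's test on groups of 4 livers marked 2 of 56 groups examined, where 2.8 would be expected by chance. *Serpina10*, the protein Z-dependent protease inhibitor, was at 1163 in *Rragc*+/+ replicate 1, against 828 to 883 in the other *Rragc*+/+ livers. *Serpina3n* was at 166 in *Rragc*+/+ replicate 4, the 2.5-month-old mouse, against 517 to 577 in the other *Rragc*+/+ livers.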

How the results depend on the processing

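No paired analysis was possible because the labels number no replicates, so that no mice are paired. With DESeq2 the count of serpins past an adjusted p of 0.05 was 1 (*Serpina3k*) in place of 0. Over all genes that count was 10, against 1 with limma. The Serpina3 sum also passed with DESeq2, at a log2 fold change of -0.77. The count of serpins was 0 in each leave-one-out fit. The count at an unadjusted p under 0.05, 5 as reported, was 2 with a mean of at least 50 and with age as a covariate, and 3 without the trend, with edgeR and with DESeq2. Leaving out 1 liver gave 2 (without *Rragc*+/+ replicate 4) to 8 (without *Rragc* S74N/+ replicate 3), and 3 without *Rragc*+/+ replicates 1, 2 or 3 or *Rragc* S74N/+ replicates 2 or 4. *Serpina3k* was in every one of these counts. Over all tested genes the main fit had 578 of 11174 under 0.05. Without *Rragc* S74N/+ replicate 3 this was 1682 of 11182, and without *Rragc*+/+ replicate 4 it was 435 of 11184. Age as a covariate gave 415 of 11174 genes and a mean of at least 50 gave 357 of 6917. The fits with 3 members called 312 (without *Rragc* S74N/+ replicate 4) to 757 (without *Rragc*+/+ replicate 3) genes. Where the member count stayed at 5, the genes could differ. With 3-month-old mice alone *Serpina3n*, *Serpina7* and *Serpinb9* replaced *Serpina12*, *Serpina3c* and *Serpinb6a*. With array weights *Serpina7* replaced *Serpinb6a*, and without *Rragc* S74N/+ replicate 1 *Serpina6* did. Over all genes these fits called 640 of 11147, 1237 of 11174 and 432 of 11150, in that order. With age as a covariate the 2 members were *Serpina3k* and *Serpina7*. *Serpina3n*, -0.056 as reported, was 0.017 with age as a covariate and -0.55 in 3-month-old mice alone. Without 1 liver the log2 fold change ranged from -0.24 to 0.0063 for *Serpina10*, -0.31 to 0.0052 for *Serpina1a*, -0.027 to 0.22 for *Serpina1c*, -0.022 to 0.15 for *Serpina1d*, -0.16 to 1.43 for *Serpina3g* and -0.48 to 0.12 for *Serpina3n*, so these have no settled direction. The *Serpina1* sum stayed uncalled and below 0, from -0.36 to -0.17. The causes were not tested. *Serpina3c*, *Serpina3f*, *Serpina3g*, *Serpina7*, *Serpina9* and *Serpinb9* have no value at a mean of at least 50.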
